A study of Mus musculus with 4 samples.

Results

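The genes described here are 10 rapidly inducible transcription factor genes and their close companions: the NR4A orphan nuclear receptors Nr4a1, Nr4a2 and Nr4a3, the AP-1 subunits Fos, Fosb, Jun and Junb, the zinc finger factor Egr1, the stress-inducible bZIP factor Atf3, and Ier2. They were chosen by name, as all probes carrying one of these gene names on the arrays, which gave 11 probes in 29 spots out of 55681 probes on the array, some of whose names were matched to 22066 genes in all. Their expression was measured in interscapular brown adipose tissue (iBAT) and epididymal white adipose tissue (eWAT) of wild-type (WT) mice and of mice lacking the kinase ASK1 (ASK1KO). The WT and ASK1KO mice were 10-week-old males labelled as taken under normal conditions. The study's methods name C57BL/6 J as the strain used unless stated otherwise, and the 2 genotypes were bred separately and are not littermates. ASK1 was missing from the whole animal in the ASK1KO group, not from adipocytes alone. Each of the 4 conditions was read on 1 one-colour array hybridized with RNA pooled from 3 mice, so no condition has a replicate. The variation from mouse to mouse could not be estimated, and the single comparisons of 1 array with another carry no test.

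Immediate early genes are transcribed within minutes of a stimulus from factors that are already present in the cell, and their transcripts are short-lived. In brown fat the best known stimulus is noradrenaline, which acts through beta-adrenergic receptors, cAMP and protein kinase A, and the kinase phosphorylates CREB at cAMP response elements (CRE). NR4A receptors bind DNA without a known physiological ligand, so their activity is set largely by how much of them is made. FOS and JUN proteins pair to form AP-1, and growth factor, stress kinase and calcium signals also act on these genes through SRF and its partners. Such transcripts are also known to respond to the handling and dissection of a tissue.

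The values below are the intensity of a probe, without scaling between arrays, followed by log2 ratios after the 75th percentile of each array had been subtracted. That percentile was 356 in WT iBAT, 371 in ASK1KO iBAT, 673 in WT eWAT and 634 in ASK1KO eWAT. A gene counted as measured in a comparison where a probe was well above background on both arrays, and 9 of the 10 genes were measured in all 4 comparisons. Nr4a3 was not. The error of a log2 ratio is a technical one, taken from the scanner software (about 10% of a spot's signal) or, for probes with at least 5 usable spots on each array, from the SD over spots. As a check of the labels, Map3k5, which encodes ASK1, read 448.0 in WT and 117 in ASK1KO iBAT and 701 and 194 in eWAT at one probe, and its log2 ratio at the other probe was -0.06 in iBAT and -0.51 in eWAT. Ucp1, the uncoupling protein of brown fat, was higher in iBAT than in eWAT of WT mice by a log2 ratio of 6.62. Lep, the leptin gene of white fat, was lower there, with -4.56. Both tissues therefore carried the markers of their label. Whole tissue was measured, so fewer cells of a type and less RNA per cell cannot be told apart.

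Of the 9 measured genes, 4 were at least 2-fold lower in ASK1KO than in WT iBAT: Nr4a1, Nr4a2, Jun and Atf3. None was higher. Among all 14377 genes measured in iBAT, 1.02% were at least 2-fold lower and 0.835% at least 2-fold higher. All 9 log2 ratios lay below 0, beside 59.5% of all genes, and their median was -0.995 against -0.07 for all genes. Fosb turned to at most 0.04 in 2 of 10 other settings, and the other 8 kept their sign in all 10. With normexp background correction the median was -0.61. In eWAT 0 of the 9 genes were at least 2-fold lower, beside 0.865% of all 15377 genes. There 8 of the 9 lay below 0, beside 45.9% of all genes, and the median was -0.39 against 0.02. The same 8 genes were below 0 in both tissues, as were 26.9% of the 14059 genes measured in both. In iBAT 7 of the 9 log2 ratios were more than 2 technical errors from 0, and in eWAT 4 were. That count was not made over all genes, so it does not show whether these genes stand out.

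**Figure D1:**
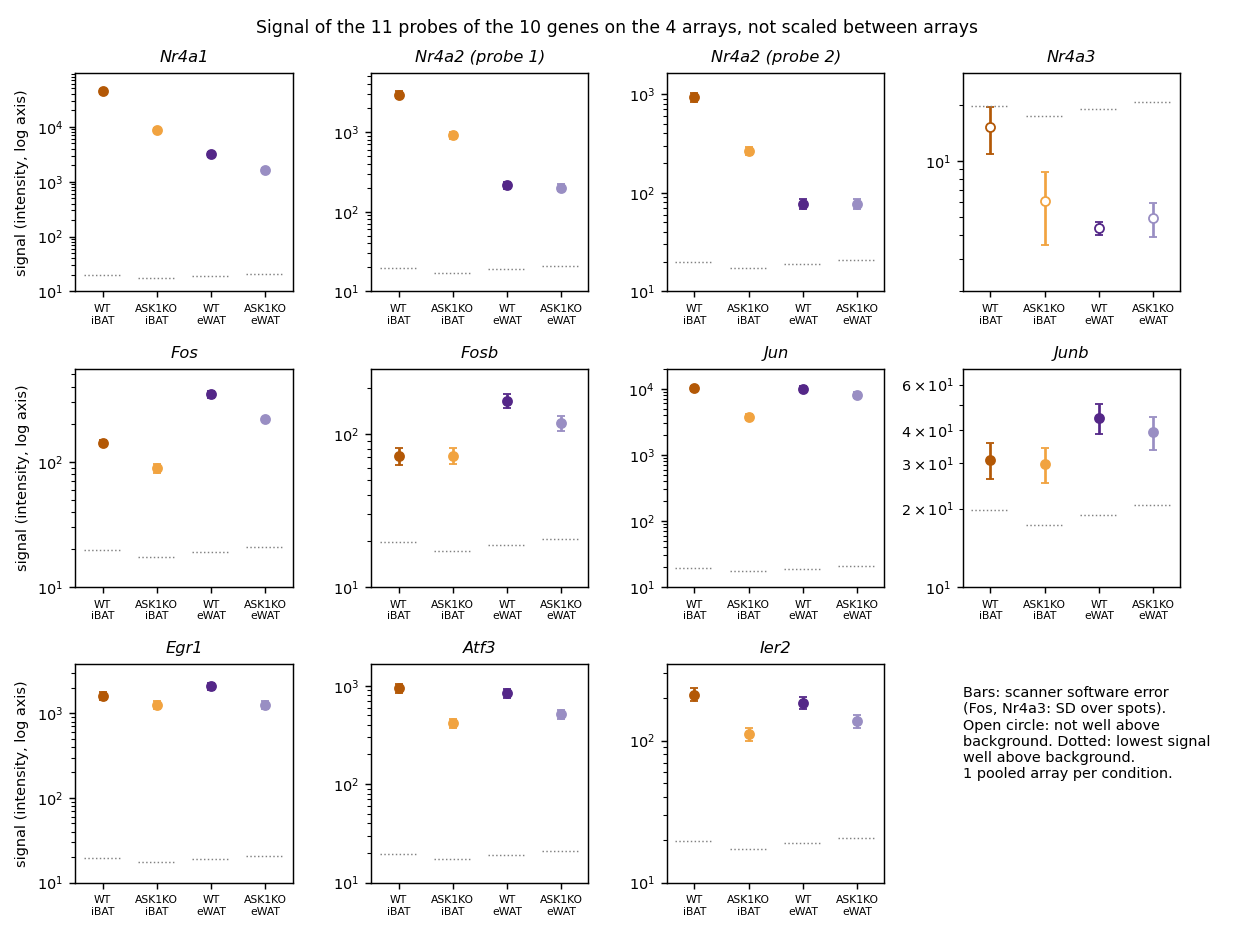
Signal intensity (log axis, not scaled between arrays) of each of the 11 probes on the arrays of WT iBAT, ASK1KO iBAT, WT eWAT and ASK1KO eWAT, with 1 pooled array per condition. Bars give the scanner software's error or, for Fos and Nr4a3, the SD over spots, and dotted lines mark the lowest signal well above background. Nr4a1 runs from 44511 in WT iBAT to 1642 in ASK1KO eWAT, while all 4 Nr4a3 points are open because they lie under the dotted lines.

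Nr4a1 (NUR77) is the NR4A receptor best known as a cAMP-induced factor in brown fat. Its probe (mm9, chromosome 15, positions 101105071 to 101105130) read 44511 in WT iBAT, 8787 in ASK1KO iBAT, 3194 in WT eWAT and 1642 in ASK1KO eWAT. WT iBAT was the highest array and ASK1KO eWAT the lowest, and within each tissue the ASK1KO array was the lower one. Nr4a1 was 5.29-fold lower in ASK1KO than in WT iBAT, a log2 ratio of -2.40 with a technical error of 0.20. Only 0.0348% of the genes measured in iBAT lay lower, which put Nr4a1 in place 6 from the bottom. In eWAT it was 1.83-fold lower (-0.87, error 0.20), with 1.18% of genes lower.

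Nr4a2 (NURR1) is the close relative of Nr4a1 and has 2 probes on chromosome 2. The one at positions 56960699 to 56960758 read 2936 in WT iBAT, 910 in ASK1KO iBAT, 217 in WT eWAT and 201 in ASK1KO eWAT. The one at positions 56959637 to 56959696 read 928, 266, 77.5 and 77.0 on the same arrays. Both probes showed the same order between the iBAT arrays, and hardly any difference between the eWAT arrays. In iBAT they gave log2 ratios of -1.75 and -1.86, and in eWAT of -0.02 and 0.08. As the mean over both probes, Nr4a2 was 3.50-fold lower in ASK1KO iBAT (-1.81, error 0.14, place 22 from the bottom), and its eWAT value was 0.03 with an error of 0.16. The sign of that eWAT value was kept in 7 of 10 other settings.

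Nr4a3 (NOR1), the third receptor, was dim on every array. Its probe on chromosome 4, listed from 48080690 to 48083876, is printed in 10 spots. In WT iBAT the spots ran from 9.20 through a median of 16.2 to 20.7, and in ASK1KO iBAT from 3.56 through 6.11 to 12.02. They ran from 3.86 through 4.33 to 4.82 in WT eWAT, and over the 7 usable spots from 4.20 through 4.49 to 7.70 in ASK1KO eWAT. WT iBAT was the brightest array, with 10 of 10 spots marked above background against 6 of 10 in ASK1KO iBAT, but its spots overlapped those of ASK1KO iBAT. The lowest signals well above background were 19.7, 17.3, 18.9 and 20.7 on the 4 arrays in the order used above, and only 1 spot, in WT iBAT, was marked well above background. No fold is therefore given for Nr4a3.

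The promoters of these genes are shown because the 3 receptors carry the same short cAMP-related motif several times while the Jun window holds no exact match to it. Near matches, such as tgacatca in the Jun window, were not counted. Each line gives the 250 bases before the gene start, 5' to 3', from the RefSeq promoter table (GRCm38.p6, a later build than that of the probe positions). Capitals mark the CRE half-site, TGACG or, on the opposite strand, CGTCA.
Nr4a1 (chr15:101266596-101266845, + strand): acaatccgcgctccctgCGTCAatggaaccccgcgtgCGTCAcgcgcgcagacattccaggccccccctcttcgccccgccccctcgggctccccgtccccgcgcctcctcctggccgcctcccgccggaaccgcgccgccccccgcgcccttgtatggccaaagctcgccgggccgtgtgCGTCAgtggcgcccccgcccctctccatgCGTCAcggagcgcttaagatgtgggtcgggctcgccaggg
Nr4a2 (chr2:57124004-57124253, - strand): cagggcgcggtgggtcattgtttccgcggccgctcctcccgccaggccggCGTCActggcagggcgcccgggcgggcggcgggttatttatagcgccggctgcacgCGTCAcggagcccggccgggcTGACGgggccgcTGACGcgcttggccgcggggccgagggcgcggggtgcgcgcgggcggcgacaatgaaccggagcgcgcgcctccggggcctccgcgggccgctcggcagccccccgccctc
Nr4a3 (chr4:48045055-48045304, + strand): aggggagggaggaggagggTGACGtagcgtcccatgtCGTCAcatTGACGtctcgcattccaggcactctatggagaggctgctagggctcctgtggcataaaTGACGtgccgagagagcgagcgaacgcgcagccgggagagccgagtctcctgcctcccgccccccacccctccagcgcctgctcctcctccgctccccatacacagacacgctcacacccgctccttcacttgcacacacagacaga
Fos (chr12:85473640-85473889, + strand): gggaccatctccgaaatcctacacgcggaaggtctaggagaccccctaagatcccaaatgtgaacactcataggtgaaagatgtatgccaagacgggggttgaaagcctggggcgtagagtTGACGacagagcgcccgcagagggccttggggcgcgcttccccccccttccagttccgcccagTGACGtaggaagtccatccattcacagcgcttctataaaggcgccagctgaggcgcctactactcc
Jun (chr4:95052223-95052472, - strand): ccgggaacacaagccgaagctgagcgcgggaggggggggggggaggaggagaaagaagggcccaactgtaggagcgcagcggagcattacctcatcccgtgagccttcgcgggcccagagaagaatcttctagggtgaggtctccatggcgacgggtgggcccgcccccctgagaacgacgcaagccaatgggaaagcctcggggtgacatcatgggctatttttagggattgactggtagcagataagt

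Promoter windows were searched for 8 of the 10 genes, and those of Egr1 and Ier2 were not searched. At least 1 CRE half-site was in 7 of the 8 windows searched, beside 17.8% of all 32851 promoter windows of the same length. The windows of Nr4a1, Nr4a2 and Nr4a3 held 4 each, a number that 0.137% of all windows reached or passed. Fos held 2, and 3.9% of all windows held 2 or more. Fosb, Junb and Atf3 held 1 each, and Jun held 0. In the Nr4a1 window all 4 half-sites read CGTCA, at -233 to -229, -213 to -209, -69 to -65 and -40 to -36 counted back from the gene start. In the Fos window they lay at -129 to -125 and -66 to -62, the latter upstream of a TATAAA box at -33 to -28. The full palindromic CRE (TGACGTCA, which contains the half-site on both strands) was in 0 of the 8 windows and in 1.55% of all windows. The AP-1 site (TGACTCA or TGAGTCA) was also in 0 of 8, beside 4.46% of all windows, and so was the CArG box, the SRF site, beside 1.47%. Sites further from the gene start, and any in Egr1 or Ier2, would be missed by this search. The letters of a TATA box on either strand (TATAAA or TTTATA) were in 2 of 8, Fos and Nr4a2, beside 12.4%. In Nr4a2 the match was TTTATA, at -164 to -159, further from the gene start than that of Fos. These are matches of letters in a window of 250 bases and not measured binding sites, and their relation to the array values was not tested.

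Jun encodes the AP-1 subunit that the JNK kinases phosphorylate. Its probe (chromosome 4, positions 94716928 to 94716987) read 10171 in WT iBAT, 3806 in ASK1KO iBAT, 9890 in WT eWAT and 8082 in ASK1KO eWAT. ASK1KO iBAT gave the lowest signal, and after scaling (log2 values of 4.84, 3.36, 3.88 and 3.67 in the same order) WT iBAT stood apart as the highest array. Jun was 2.79-fold lower in ASK1KO iBAT (-1.48, error 0.20), with 0.285% of genes lower, and its eWAT log2 ratio was -0.20 with an error of 0.20. Junb encodes a JUN relative that often dampens JUN activity. Its probe on chromosome 8, from 87501881 to 87501940, was near the lower limit of detection, with 30.9, 29.7, 44.5 and 39.4 on the arrays in the same order. The log2 ratio of Junb, -0.12 in iBAT and -0.09 in eWAT, was smaller than its error of 0.32 and 0.28.

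Fos, the prototype immediate early gene, has a probe on chromosome 12, from 86817900 to 86817959, that is printed in 10 spots. In WT iBAT its 7 usable spots ran from 135 through a median of 139 to 158, and in ASK1KO iBAT its 10 spots ran from 75.3 through 93.2 to 97.2. In WT eWAT 9 usable spots ran from 308 through 351 to 368, and in ASK1KO eWAT 10 spots ran from 213 through 219 to 229. The spots of the genotypes did not overlap in either tissue, and WT was the higher array in both. Spots of 1 array are repeats of the same RNA pool and not of mice. The log2 ratio was -0.73 (error 0.15) in iBAT and -0.58 (error 0.09) in eWAT, with 2.36% and 2.71% of genes lower. Fosb, the FOS relative on chromosome 7 (probe 19888168 to 19888227), gave 71.7 in WT iBAT, 71.7 in ASK1KO iBAT, 164 in WT eWAT and 118 in ASK1KO eWAT. Its iBAT arrays could not be separated, with a log2 ratio of -0.06 and an error of 0.25 whose sign was kept in 8 of 10 other settings, and in eWAT the log2 ratio was -0.39 with an error of 0.22.

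**Figure D2:**
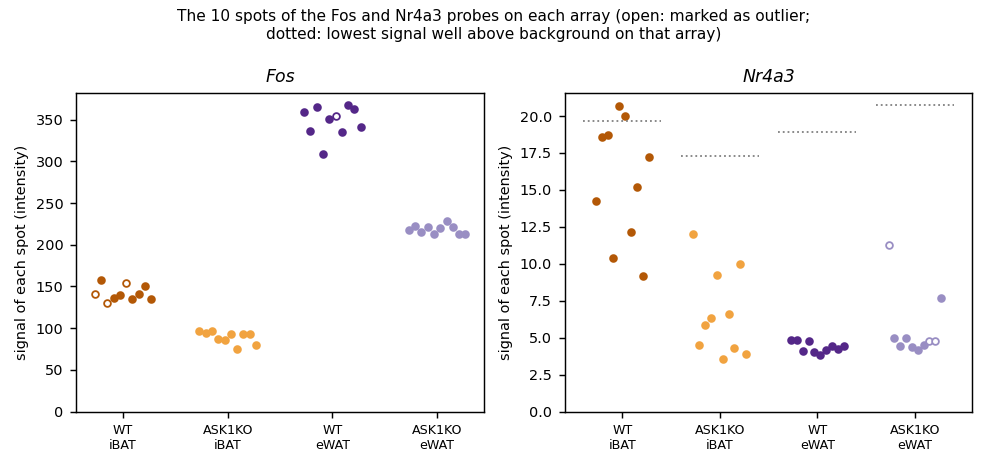
Signal of each of the 10 spots of the Fos and Nr4a3 probes on the 4 arrays (linear axis from 0; open points were marked as outliers and not used; dotted lines show the lowest signal well above background on that array). Fos spots separate by genotype in both tissues, from 135 to 158 against 75.3 to 97.2 in iBAT, while Nr4a3 spots of WT and ASK1KO iBAT overlap and lie mostly under the dotted lines.

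Atf3, a bZIP factor that pairs with JUN proteins and is induced by many stresses, has a probe on chromosome 1 at positions 192994547 to 192994606. It read 940 in WT iBAT, 414 in ASK1KO iBAT, 835 in WT eWAT and 511 in ASK1KO eWAT. The ASK1KO array was the lower one in both tissues. The difference was 2.37-fold in iBAT (-1.25, error 0.20, 0.494% of genes lower) and 1.54-fold in eWAT (-0.62, error 0.20, 2.39% lower). Ier2, a nuclear protein of the immediate early response, gave 211, 111, 185 and 138 on the same arrays at its probe on chromosome 8 (87186214 to 87186273). Ier2 lay just under the 2-fold threshold in iBAT at 1.99-fold lower, with an error of 0.21 on the log2 scale, and its log2 ratio in eWAT was -0.34.

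Egr1 encodes a zinc finger factor whose activity is held back by the NAB corepressors that it induces. Its probe on chromosome 18 (35024395 to 35024454) gave 1621 in WT iBAT, 1261 in ASK1KO iBAT, 2083 in WT eWAT and 1258 in ASK1KO eWAT. Egr1 was lower on the ASK1KO array of both tissues, with a log2 ratio of -0.64 (error 0.20) in eWAT and -0.42 (error 0.20) in iBAT. Both corepressor genes, Nab1 and Nab2, were measured, and neither was 2-fold apart in either tissue (log2 ratios -0.13 to 0.21 in iBAT and -0.43 to -0.02 in eWAT).

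The log2 ratio in iBAT was compared with that in eWAT gene by gene. The iBAT value minus the eWAT value was -1.84 for Nr4a2, -1.53 for Nr4a1 and -1.28 for Jun. Of the 14059 genes measured in both tissues, 0.0996%, 0.285% and 0.548% lay lower than these 3 genes. The 1st percentile of all genes was -1.02 and their median -0.08. Ier2 (-0.66) and Atf3 (-0.62) lay between these, while Fos (-0.15), Junb (-0.03), Egr1 (0.22) and Fosb (0.33) had similar values in both tissues relative to their errors. With 1 array per condition this difference was not tested.

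**Figure D3:**
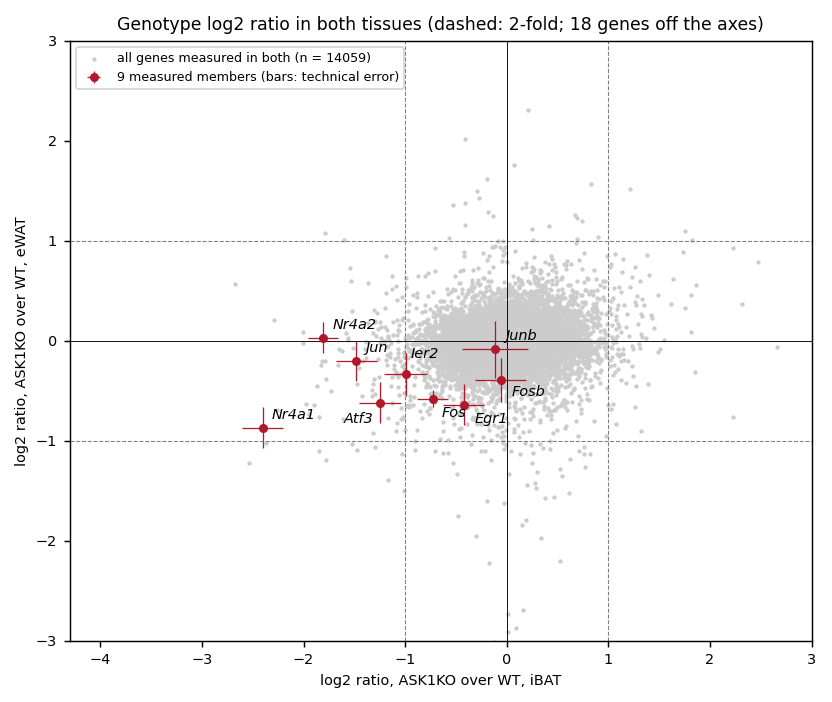
Log2 ratio of ASK1KO over WT in iBAT (x axis) and in eWAT (y axis) for the 14059 genes measured in both tissues (grey) and the 9 measured members (red, bars: technical error). Dashed lines mark 2-fold, and 18 genes lie beyond the axes. Nr4a1, Nr4a2, Jun and Atf3 lie left of the 2-fold line, all with eWAT values between -0.87 and 0.03.

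A limma model with a term for genotype and a term for tissue was fitted to the 4 arrays. It assumes 1 common genotype difference for iBAT and eWAT, and 1 degree of freedom is left for the residual. For genotype, limma called 0 of the 9 genes at an adjusted p under 0.05, beside 0% of the 14057 genes in the fit. At an unadjusted p under 0.05 it counted 6 of the 9, beside 5.48% of all genes. These 6 were Nr4a1 (log2 difference -1.64, adjusted p = 0.511 by limma), Atf3 (-0.93, 0.511), Fos (-0.65, 0.568), Egr1 (-0.53, 0.746), Ier2 (-0.67, 0.756) and Jun (-0.84, 0.842). This count depended on the scaling: with each array centred on its median, limma called 4 of the 9 genes (Nr4a1, Nr4a2, Jun and Atf3) and 139 genes in all, and with the authors' table of the series, itself scaled to a median of 1, it called 4 and 128.

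Between tissues, Nr4a1 and Nr4a2 differed most among the 9 measured genes, and Nr4a3 has no tissue value. Of the 9 genes, 4 were at least 2-fold higher in iBAT than in eWAT of WT mice, beside 16.4% of all genes, and 0 were at least 2-fold lower, beside 13.4%. Nr4a1 was 26.4-fold higher (log2 ratio 4.72, error 0.20) and Nr4a2 24.1-fold higher (4.59, error 0.15), and 99.5% and 99.4% of genes lay lower. Atf3 (2.13-fold) and Ier2 (2.16-fold) followed at the threshold, and Jun was at 1.95-fold. In ASK1KO mice 2 of the 9 genes were at least 2-fold higher in iBAT, beside 12.3% of all genes, and 0 were lower, beside 12.6%. These were Nr4a1 at 9.13-fold (3.19) and Nr4a2 at 6.75-fold (2.76). Fos lay lower in iBAT than in eWAT in both genotypes (-0.37 in WT and -0.52 in ASK1KO), and kept that sign in all 10 other settings.

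In the fit of both factors, limma called 6 of the 9 genes for tissue at an adjusted p under 0.05, beside 55.5% of all genes, a share not far from that of the members. The 5 higher in iBAT were Nr4a1 (log2 difference 3.96, SE 0.34, adjusted p = 0.000217), Nr4a2 (3.67, SE 0.40, adjusted p = 0.000525), Egr1 (0.67), Atf3 (0.78) and Ier2 (0.78) by limma, and Fos was lower (-0.44, adjusted p = 0.0428 by limma). Jun, whose tissue log2 ratio was 0.96 in WT and -0.32 in ASK1KO, was not called, nor were Fosb and Junb. The iBAT arrays were dimmer as a whole, so the smaller tissue values depend on the scaling: without it the median of all genes moved to -0.80 in WT and -0.75 in ASK1KO, and in WT Egr1 and Junb turned to -0.36 and -0.53 and Jun to 0.04. Without scaling Atf3 and Ier2 were at 0.17 and 0.19 in WT, no longer 2-fold apart, and at -0.30 and -0.32 in ASK1KO. Nr4a1 and Nr4a2 stayed at 3.80 and 3.67 in WT and at 2.42 and 1.98 in ASK1KO. Genes of skeletal muscle, where NR4A receptors are also expressed, were brighter in iBAT as well, with all 5 markers of that list well above background on 3 arrays and 4 of 5 in ASK1KO eWAT. Their summed scaled level was 591 in WT iBAT, 598 in ASK1KO iBAT, 8.28 in WT eWAT and 4.13 in ASK1KO eWAT, and their part in the tissue difference was not tested.

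**Figure D4:**
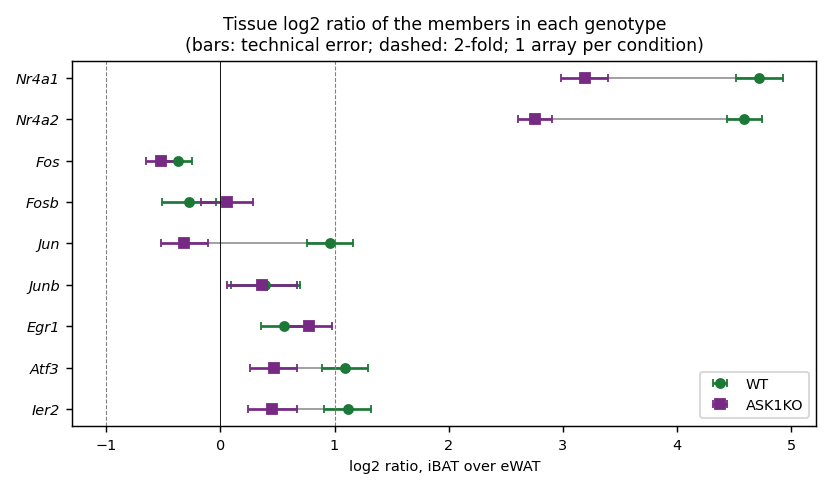
Log2 ratio of iBAT over eWAT for the 9 measured members in WT (circles) and ASK1KO mice (squares), with technical errors as bars and dashed lines at 2-fold. Nr4a1 and Nr4a2 lie at 4.72 and 4.59 in WT and at 3.19 and 2.76 in ASK1KO, and Jun moves from 0.96 to -0.32.

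Each gene's 4 scaled log2 values were centred on their mean and compared with those of every other gene over the 4 arrays, by the root mean square distance. Among 14057 genes the nearest to Nr4a1 were the noncoding RNA gene 4732419C18Rik (0.27), Nr4a2 (0.41), Slc25a34 (0.43), Dhrs9 (0.54) and Ankrd9 (0.56). Nr4a2 was thus the second nearest of all genes to Nr4a1, whereas Atf3, the nearest other member, was in place 1494. The nearest to Fos were P2ry10b (0.10), 5430403G16Rik (0.10), Slc35g2 (0.11), H2ac1 (0.11) and the FOS family gene Fosl2 (0.11). Fosl2, which encodes FRA2, followed Fos from array to array more closely than any of the other members did, Fosb being in place 926. With 4 arrays such nearness is a description only.

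Other genes of the same response were read from a list of 63 further immediate early genes. Of the 56 measured in iBAT, 5 were at least 2-fold lower in ASK1KO, beside 1.02% of all genes, and 2 at least 2-fold higher, beside 0.835%, and the median log2 ratio was 0.06, above the -0.07 of all genes. With each array centred on its median the list's median was -0.02 against -0.14 for all genes, and 6 genes were lower and 1 higher. The 5 lower genes became 2 with normexp correction and 2 without scaling. Scaled to the percentile over detected probes, 2 were lower and 3 higher. In eWAT 1 of 58 was at least 2-fold lower, beside 0.865% of all genes, and 0 were higher, beside 0.286%, with a median of -0.11. The low iBAT values of Nr4a1, Nr4a2, Jun and Atf3 were thus not shared by most of the list. Sik1, a cAMP-induced kinase that restrains CREB coactivators, gave 1170 in WT and 459 in ASK1KO iBAT (log2 ratio -1.41) and 848 and 695 in eWAT (-0.20). Pim1, a serine/threonine kinase, had -1.23 in iBAT and 0.02 in eWAT. Egr2, the relative of Egr1, had -1.04 and -0.67. Trib1 (-1.02 in iBAT) and Ier3 (-1.02) were the other low genes. Myc, the growth-related factor, went the other way, with a signal of 85.9 in WT and 315 in ASK1KO iBAT (1.81) against 367 and 368 in eWAT (0.09). Ccn2, a matricellular protein gene, was also higher in ASK1KO iBAT (1.02). In eWAT the chemokine gene Ccl2 was the gene at least 2-fold lower (-1.18), with a signal of 2599 in WT and 1078 in ASK1KO.

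Of 13 other AP-1 partner genes of the bZIP class, 12 were measured. Their log2 ratios had a median of 0.20 in iBAT, and of 0.04 in eWAT, where none was 2-fold apart. All 22 genes of a list of upstream and partner factors were measured (CREB, SRF, ELK, MRTF and MEF2 factors, CREB coactivators, the salt-inducible kinases Sik2 and Sik3 that restrain these, and the RXR receptors that pair with NR4A receptors), and 0 were 2-fold apart in either tissue: their log2 ratios ran from -0.32 to 0.26 in iBAT and from -0.22 to 0.24 in eWAT. Transcript levels do not show phosphorylation, which was not measured on these arrays.

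Feedback inhibitors of MAP kinases are themselves induced with the immediate early genes. Of 12 measured in iBAT, 2 were at least 2-fold lower in ASK1KO, beside 1.02% of all genes. These were Spry4 (-1.29) and Dusp6 (-1.09), and the median was -0.10 against -0.07 for all genes. In eWAT 1 of 13 was lower, Dusp2 (-1.22), beside 0.865% of all genes. Of 24 measured genes known to follow cAMP in brown fat, 4 were at least 2-fold lower in ASK1KO iBAT, beside 1.02% of all genes, and 0 higher: Elovl3, a fatty acid elongase (-4.10), Dio2, the deiodinase that activates thyroid hormone (-2.37), Sik1 and the glycerol kinase gene Gk (-1.25). In that list 22 of 24 lay below 0, beside 59.5% of all genes, with a median of -0.36, and between 17 and 22 of 24 did so under the other scalings. In eWAT 3 of 23 were lower, beside 0.865% of all genes, Ucp1 (-4.63), Cidea (-2.23) and Dio2 (-1.02), and Irf4 was higher (1.02). Dio2 and Irf4 lay at the threshold: between 2 and 4 genes were lower under the other scalings, and 0 were higher with normexp correction, without scaling, after loess and with the percentile over detected probes.

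**Figure D5:**
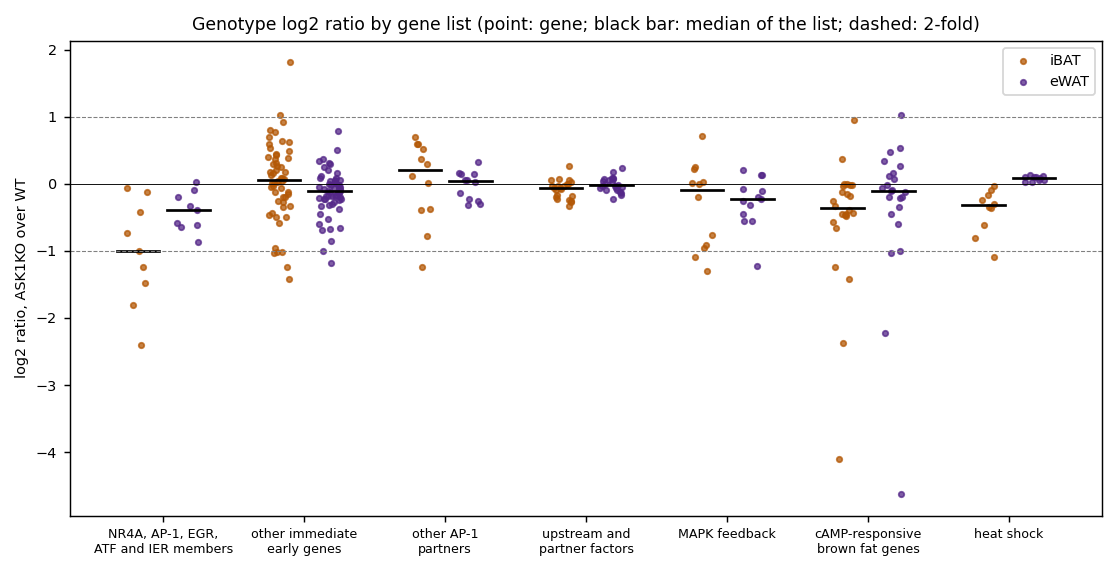
Log2 ratio of ASK1KO over WT for each measured gene of 7 lists in iBAT and eWAT (points), with the list's median as a black bar and 2-fold as dashed lines. In iBAT the median of the 9 measured members is -0.995, that of the other immediate early genes 0.06 and that of the heat shock genes -0.32.

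Measures that can move with such genes are given here for both tissues. Heat shock genes, used as a sign of handling or warmth of the tissue, were measured for 10 of 11 listed genes. In iBAT all 10 were lower in ASK1KO (7 to 10 under the other scalings), beside 59.5% of all genes, with a median of -0.32 against -0.07. Dnajb1, at -1.08, was less than 2-fold lower after quantile or loess normalization and with the percentile over detected probes. In eWAT all 10 were higher (5 without scaling), with a median of 0.09 against 0.02. Their summed scaled level was 1673 in WT iBAT, 1418 in ASK1KO iBAT, 662 in WT eWAT and 703 in ASK1KO eWAT. All 7 macrophage markers were higher in ASK1KO iBAT (6 with median centring, median 0.58), where 59.5% of all genes lay below 0. In ASK1KO eWAT all 7 lay below 0 (5 with the series table), beside 45.9% of all genes. These eWAT values were close to 0, from -0.19 to -0.000124 with a median of -0.06. The summed scaled levels of the macrophage markers were 41.4, 51.0, 147 and 138 on the arrays in the same order. Brown adipocyte markers summed to 3801 in WT and 3193 in ASK1KO iBAT and to 48.4 and 16.1 in eWAT, and general adipocyte markers to 2165 and 2200 in iBAT and 1768 and 1797 in eWAT. All 4 fibroblast and progenitor markers were higher in ASK1KO iBAT (median 0.36), with summed scaled levels of 109 and 138 in iBAT and 366 and 365 in eWAT. All 3 erythrocyte markers were lower in ASK1KO in both tissues (2 in iBAT after quantile normalization; median -0.33 in iBAT, sums 580 in WT and 474 in ASK1KO, and median -0.19 in eWAT, sums 454 and 410). Of 4 B cell markers the 2 measured in iBAT were lower in ASK1KO (median -0.50; sums 2.76 and 1.86). In ASK1KO eWAT all 4 measured T cell markers of 5 listed were lower (median -0.70; sums 3.40 in WT and 2.39 in ASK1KO). Of 4 neutrophil markers 3 were lower there, 2 of them at least 2-fold (median -0.74; sums 4.30 and 3.11), and all 4 measured skeletal muscle markers of 5 listed were lower (median -0.89). White adipocyte markers, 3 genes, summed to 100.1 in WT and 86.0 in ASK1KO iBAT and to 905 and 944 in eWAT, and 2 of the 3 were higher in ASK1KO iBAT (median 0.44). None of the 3 epididymis markers was well above background on any array. In iBAT 4 hepatocyte markers summed to 0.20 in WT, where 1 was well above background, and to 0.82 in ASK1KO, where 4 were. In eWAT they summed to 11.1 in WT and 0.44 in ASK1KO, and 3 of 3 measured were at least 2-fold lower (median -4.26). The part of handling or cell types in the lower iBAT values of Nr4a1, Nr4a2, Jun and Atf3 was not tested.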

How the data were processed

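RNA from iBAT and eWAT of WT and ASK1KO mice was measured on 4 one-colour Agilent 8 x 60K arrays on 1 slide, 1 per condition, and grouped by the sample labels. The authors deposited the output of Agilent Feature Extraction 10.7.3.1 (per the file headers), in which each spot's processed signal is a linear intensity, background-corrected within the array and not scaled to the other arrays. They also deposited a table of the series as a signal on a linear scale; each of its columns equals the processed signal divided by 1 constant that sets its median to 1.

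From the processed signal, log2 was taken without control and outlier spots, repeated spots were averaged by probe, and each array's 75th percentile was then subtracted. A gene's value is the mean log2 ratio over the probes that passed the software's well-above-background mark on both arrays compared. Of 34844 gene names, 22147 matched the RefSeq gene table. Probe positions are given on mm9 as in the files, and exons and UTRs were not assigned to them. Genes at least 2-fold apart were counted, and limma 3.58.1 fitted genotype and tissue over the 4 arrays with Benjamini-Hochberg adjustment. The members and lists were chosen with earlier results of these data known. Named genes are the 10 members, Map3k5, Ucp1, Cidea and Lep, list genes at least 2-fold apart between genotypes, and the 5 genes nearest to Nr4a1 and to Fos; 1 result of this kind is not reported here. The number of arrays limits the precision. Alternatives were normexp background correction (offset 50), quantile, cyclic loess, median centring, no scaling, the percentile over detected probes, the series table, other filters, the brightest probe and a 1.5-fold threshold. The steps were tested on simulated data. R 4.3.3, Python 3.11.15, pandas 2.3.3, numpy 2.4.6 and matplotlib 3.10.9 were used.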

Additional observations from a re-analysis of the deposited data

How the results depend on the processing

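No paired analysis was possible because each condition has 1 array, and for the same reason no array could be left out in turn. Of 360 alternative log2 ratios of single members, 326 stayed within 1 technical error of the reported value and 34 did not, and no value at least 2-fold apart turned its sign. In iBAT 4 or 5 members were at least 2-fold lower in every setting tried, beside 0.473% to 2.47% of all genes. At least 1.5-fold lower in iBAT were 6 members, beside 4.26% of all genes. In eWAT the count of 0 became 3 with a 1.5-fold threshold (Nr4a1, Egr1 and Atf3), beside 2.67% of all genes. For the tissues in WT, the 4 members became 2 with the percentile over detected probes and 2 with normexp correction, and without scaling 2 members were higher and 2 lower in iBAT in each genotype, so that the 2 members at least 2-fold apart in ASK1KO became 4 and the 4 higher in WT became 2. For genotype, limma's 0 members became 4 after median centring and 4 for the series table, and the tissue count of 6 became 3 without the filter on dim probes.

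Over all genes, the 266 genes at least 2-fold apart in iBAT became 106 with normexp correction, 1127 without a filter and 1262 at 1.5-fold. The 177 in eWAT became 60, 1036 and 622, and 114 with probes detected on all 4 arrays. Between tissues the 4243 genes in WT became 9241 without a filter and 7115 at 1.5-fold, and the 3622 in ASK1KO became 5523 and 6450, and 5794 without scaling. The genotype fit called 139 genes after median centring, 128 for the series table and 24 with normexp correction, against 0. Of the iBAT genes at least 2-fold apart, 45.1% were higher in ASK1KO, and this share was 61.8% with the percentile over detected probes, 32.6% after median centring and 31.7% for the series table. Without scaling 11.4% of those between tissues in WT and 10.72% in ASK1KO were higher in iBAT, against 55.1% and 49.4%. The cause of these shifts was not tested. Signals near background, as for Nr4a3 and Junb, limit what could be measured.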
